A study of Mus musculus with 6 samples.

Results

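The integrated stress response genes *Atf4*, *Atf5*, *Atf6*, *Xbp1*, *Ddit3*, *Asns*, *Psat1*, *Chac1*, *Trib3* and *Sesn2* were examined in mouse inguinal adipose tissue (iAT), the subcutaneous fat depot of the groin. They are transcription factors and target genes of the integrated stress response and of the endoplasmic reticulum (ER) stress response, taken by gene symbol, and all 10 were found among 19831 listed genes. RNA sequencing covered 3 samples of wild-type mice and 3 of mice without *Npffr1* (Npffr1-KO), the gene of a receptor for neuropeptide FF. Both groups were taken at postnatal day 6 from mice kept in an SPF facility, and total RNA was extracted with TRIzol. The study's methods describe young male C57BL/6 mice, but refer to earlier work for the sequencing, and the labels of these samples name neither strain nor sex. The sources used here do not say how the allele was made or how many animals went into a sample. *Atf4* and *Asns* had values 24.4% and 32.7% higher in Npffr1-KO iAT, and *Trib3* had 157 normalized counts against 201 in wild-type. *Atf6* and *Xbp1* differed by less than 5%. None of the 10 genes differed by 1.5-fold. Few of the 15309 genes whose mean reached 10 normalized counts did, 2.78% higher and 3.12% lower in Npffr1-KO. These are moderated values, 1 per genotype, and for 9 of the 10 genes no test was possible.

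The integrated stress response starts with kinases that phosphorylate the translation factor eIF2 when a cell lacks amino acids or haem, meets viral RNA or accumulates unfolded proteins in the ER. Translation then slows for most mRNAs, while that of *Atf4* increases, and the ATF4 protein switches on genes for amino acid synthesis, amino acid import and tRNA charging. Unfolded proteins also activate ATF6, which is cut to release a transcription factor, and IRE1, which splices *Xbp1* mRNA. As ATF4 is controlled mainly in translation and ATF6 and XBP1 by cleavage and splicing, the mRNA levels given here do not measure the activity of these proteins.

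ATF4 binds with C/EBP partners to C/EBP-ATF response elements, written here as TGATGNAA and searched on both strands. Such a match was found in 3 of the 9 genes with a promoter window, *Chac1*, *Trib3* and *Asns*. The RefSeq windows of the mouse build GRCm38.p6 hold 300 bases, 250 before the start site and 50 after it. A window was at hand for 9 of the 10 genes, with *Atf6* named only. The sequences around the matches are shown with the matched bases in capitals, as places where the letters of the motif occur. Binding of ATF4 to them was not measured here.
Chac1, chr2:119351019-119351086, plus strand: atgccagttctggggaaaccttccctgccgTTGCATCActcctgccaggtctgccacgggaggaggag
Asns, chr6:7693210-7693262, minus strand: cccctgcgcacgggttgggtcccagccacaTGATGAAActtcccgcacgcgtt
Trib3, chr2:152344031-152344054, minus strand: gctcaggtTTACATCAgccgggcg
All are written in the direction of the gene. The match in *Chac1* begins 193 bases before the start site and reads on the other strand, and that in *Asns* begins 23 bases before the start site on the strand of the gene. In *Trib3* the match lies at base 15 of the transcribed part, on the other strand. The motif was found in 3 of the 11 windows of these genes and in 3.97% of all 32851 windows of this length. Neither the cyclic AMP response element TGACGTCA, nor the unfolded protein response element TGACGTGG, nor the ER stress element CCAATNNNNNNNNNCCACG was found in the 11 windows of these genes, and they occur in 1.79%, 0.676% and 0.119% of all windows. TGACGTCA and TGACGTGG share their first 6 bases.

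The deposited table gives 1 value per gene and genotype, a read count normalized for library size by the authors. The mean of both values of a gene is its mean over the 6 libraries, but their ratio is a moderated fold change, so neither value is a plain group mean. Summed over all genes, the values reach 23137343 normalized counts for the wild-type and 23640005 for the Npffr1-KO. For a gene with 1 value per genotype there is no spread between samples, and the log2 ratio of Npffr1-KO over wild-type is then a description without a test. The standard errors (SE) and counting intervals given with log2 ratios cover counting error only. They treat both values as plain means of 3 libraries and so do not allow for the moderation of the ratio. Where the mean of a gene did not exceed 50 normalized counts, the whole counts of the 6 libraries could be recovered from the values, and among these 10 genes that holds for *Chac1* only. The recovered libraries have a known genotype but no sample number, and are called libraries a, b and c of each genotype. Size factors of the 6 libraries lay between 0.916 and 1.04. Library a of Npffr1-KO stood apart in the muscle gene *Ckm*, with 207 normalized counts against 1.01 and 6.55 in the other Npffr1-KO libraries and 1.93 to 2.94 in wild-type. *Npffr1* itself had 1, 0 and 5 counts in the wild-type libraries and none in the Npffr1-KO libraries, which is too few to check the deletion.

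The stress response genes covered a wide range of levels in wild-type iAT. Per kilobase of gene length the highest, *Atf4*, lay 242-fold above the lowest, *Chac1*. The transcription factors *Atf4*, *Xbp1* and *Atf5* led with 3431, 2049 and 1873 normalized counts per kilobase. They were followed by *Psat1* with 835, *Asns* with 466, *Ddit3* with 362, *Sesn2* with 149, *Atf6* with 138, *Trib3* with 97.8 and *Chac1* with 14.2 normalized counts per kilobase. *Atf4* stood at percentile 97.0 of the 15309 genes whose mean reached 10 normalized counts, and *Chac1* at percentile 9.81. *Sesn2* and *Atf6* are neighbours in this order and, taken as a ratio, lie closest to each other, and *Xbp1* and *Atf5* come next in closeness. The order was the same per kilobase in Npffr1-KO, except that *Atf5* with 2146 stood above *Xbp1* with 1996 normalized counts per kilobase. Whether neighbours in the order differ beyond the spread between samples could not be examined for genes with 1 value per genotype.

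**Figure D1:**
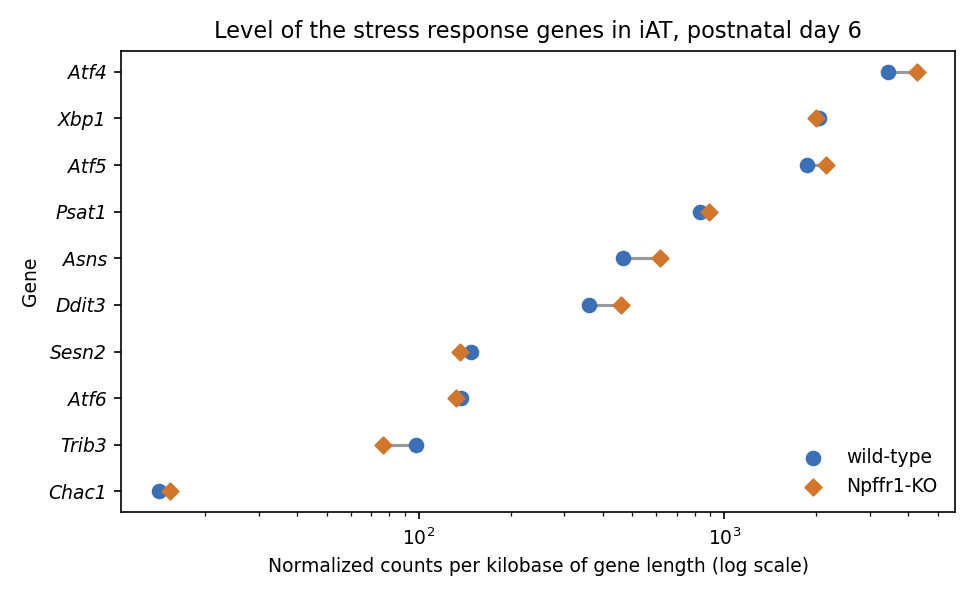
Levels of the 10 stress response genes in wild-type (circles) and Npffr1-KO (diamonds) iAT as the authors' value per genotype divided by gene length, in normalized counts per kilobase on a log scale. *Atf4* is highest with 3431 in wild-type and *Chac1* lowest with 14.2, and *Atf5* and *Xbp1* change places between the genotypes.

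Of the 10 genes, 6 had a log2 ratio above 0 and 4 below 0, with a median of 0.11. Over those 15309 genes, the median was 0.01 and 51.2% lay above 0. In size, the median log2 ratio of the 10 genes was 0.16 and that of all genes 0.18. At a threshold of 1.5-fold, 0 of the 10 genes were higher in Npffr1-KO, where 2.78% of all genes were, and 0 were lower, where 3.12% of all genes were. At a lower threshold, a log2 ratio of 0.322 in size, *Asns* and *Ddit3* were higher, against 12.0% of all genes, and *Trib3* was lower, against 11.6% of all genes. *Atf4*, at 0.315, lay just inside this threshold. The 10 genes thus lay inside the body of the distribution.

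**Figure D2:**
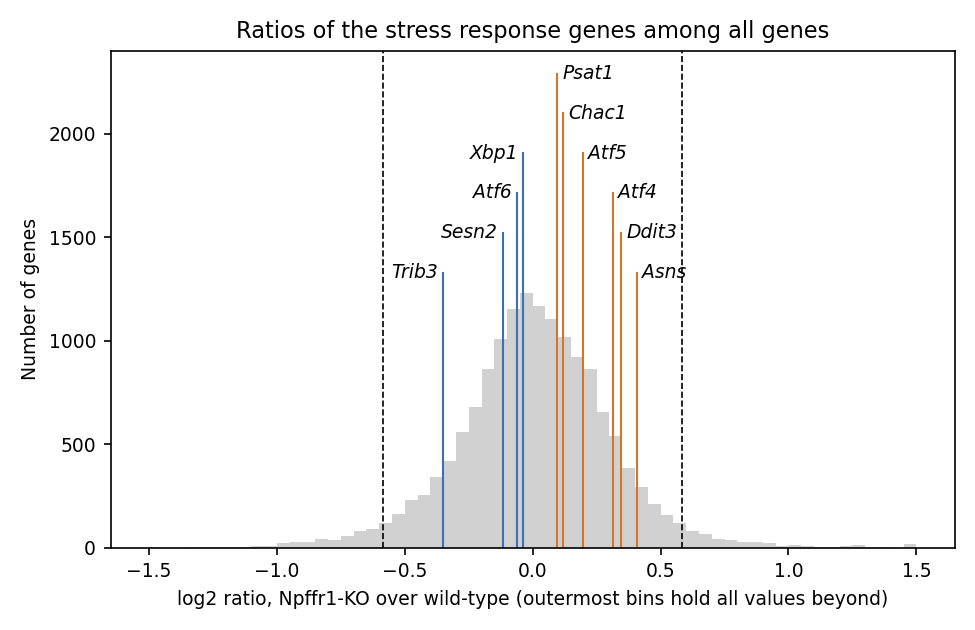
Histogram of the log2 ratio of Npffr1-KO over wild-type for the 15309 genes whose mean reached 10 normalized counts, with a vertical line for each stress response gene, orange above 0 and blue below 0. The heights of the lines carry no value, dashed lines mark 1.5-fold, and all 10 genes lie between them.

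Among the transcription factors, *Atf4*, the central activator of the response, had a value of 5301 normalized counts in wild-type iAT and 6597 in Npffr1-KO iAT, a log2 ratio of 0.315 (SE 0.02, counting error only). A change at least this large was seen in 24.6% of all genes. *Atf5*, a related factor that is also controlled in translation and acts in the mitochondrial stress response, had 3429.8 and 3929 normalized counts, a log2 ratio of 0.20. *Ddit3*, which encodes CHOP, the factor linked to cell death under prolonged stress, had 318 and 404 normalized counts, a log2 ratio of 0.35 (SE 0.06, counting error only). These 3 factors had higher values in Npffr1-KO.

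The factors of the ER stress branches hardly differed. *Xbp1*, a driver of secretory capacity, had 4632 and 4512 normalized counts in wild-type and Npffr1-KO, a log2 ratio of -0.04. The table does not separate its spliced from its unspliced mRNA. *Atf6*, which encodes the ER membrane sensor and factor ATF6, had 1031 and 988 normalized counts, a log2 ratio of -0.06. Its 95% counting interval ran from -0.13 to 0.01, and when ratios were centred on genes of like length its sign turned, to 0.08.

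The amino acid synthesis genes lay on the same side as *Atf4* but by different amounts. *Asns*, which encodes asparagine synthetase, had 897 normalized counts in the wild-type against 1191 in Npffr1-KO, a log2 ratio of 0.41 (SE 0.04, counting error only). It was the highest ratio of the 10 genes, and 14.9% of all genes changed by at least as much in either direction. *Psat1*, which encodes the aminotransferase of serine synthesis, had 1814 and 1940.2 normalized counts, a log2 ratio of 0.10.

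The remaining targets were *Trib3*, *Sesn2* and *Chac1*. *Trib3*, which encodes a pseudokinase that restrains ATF4 and insulin signalling, had 201 and 157 normalized counts in wild-type and Npffr1-KO, a log2 ratio of -0.35 (SE 0.09, counting error only). It was the lowest ratio of the 10 genes and had the opposite sign to *Asns*, although both carry the motif printed above. *Sesn2*, which encodes a leucine sensor that restrains mTORC1, had 398 and 367 normalized counts, a log2 ratio of -0.12 with a counting interval from -0.24 to 0.00. *Chac1*, which encodes a glutathione-degrading enzyme, had listed values of 22.4 and 24.4 normalized counts, a log2 ratio of 0.12.

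For *Chac1* the counts of each library were known. The wild-type libraries a, b and c held 23, 24 and 21 counts, and the Npffr1-KO libraries held 27, 15 and 30. Normalized, the wild-type mean was 22.2 ± 1.33 (SD, n = 3) and the Npffr1-KO mean 24.6 ± 8.88 (SD, n = 3). The groups overlapped, with the lowest and the highest library both in Npffr1-KO. On the scale of log2(normalized count + 1) the difference was 0.08 (SE 0.38), with an adjusted p of 0.973 in limma with Benjamini-Hochberg adjustment over 2908 genes. An exact two-sided permutation test gave p = 0.7, where 3 against 3 libraries cannot go below 0.1. Leaving out Npffr1-KO library c turned the difference to -0.15, leaving out library b raised it to 0.38, and without library a, which stood apart in *Ckm*, it was 0.01. A difference in *Chac1* was thus not detected with these 3 libraries per genotype. The limma test passed 0.0344% of the 2908 genes at an adjusted p under 0.05, which is 1 gene, while 294 genes had an unadjusted p under 0.05.

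The kinases, phosphatases and factors around eIF2 showed no common direction as a set. Of 17 genes, 10 lay above 0 and 7 below, with a median log2 ratio of 0.08 that came to 0.02 after centring on genes of like length. *Ppp1r15a*, which encodes GADD34, the stress-induced subunit that directs eIF2 dephosphorylation, was the only gene of the 17 past 1.5-fold. Its values were 1139 and 2019 normalized counts in wild-type and Npffr1-KO, a log2 ratio of 0.83 that stayed at 0.77 after centring on genes of like length. Next came *Eif2s1*, the phosphorylated subunit itself, with a log2 ratio of 0.32. *Eif2s3x* and *Eif2s2* had 0.29 and 0.23, and *Eif2b1* to *Eif2b5* ran from 0.08 for *Eif2b3* to 0.21 for *Eif2b4*. Centred on genes of like length, *Eif2b3* came to -0.04. The kinases had log2 ratios near 0 or below: *Eif2ak1* (HRI) 0.02, *Eif2ak4* (GCN2) -0.12, *Eif2ak2* (PKR) -0.17 and *Eif2ak3* (PERK) -0.25. *Impact*, which encodes an inhibitor of GCN2, had a log2 ratio of -0.23.

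The next lists were made by role, namely amino acid synthesis, tRNA charging and amino acid transport. Being on them does not mark a gene as an ATF4 target. Of 12 genes of serine, one-carbon and amino acid synthesis, 8 lay above 0, with a median log2 ratio of 0.19 (0.20 after centring on length) and none past 1.5-fold. The highest were *Mthfd2*, a mitochondrial folate enzyme, with 366 and 513 normalized counts and a log2 ratio of 0.49, and *Psph*, the last enzyme of serine synthesis, with 331 and 441 and a ratio of 0.41. *Phgdh*, its first enzyme, had 3096 and 3903 normalized counts, a log2 ratio of 0.33. So *Psph* and *Phgdh*, which flank *Psat1* in the pathway, had higher ratios than *Psat1* itself. *Aldh1l2*, a mitochondrial folate dehydrogenase, and *Gpt2*, an alanine aminotransferase, lay lowest with log2 ratios of -0.40 and -0.32.

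All 20 cytosolic aminoacyl-tRNA synthetases, the enzymes that charge tRNAs, had a log2 ratio above 0, and all 20 stayed above 0 after centring on genes of like length. The differences were small, from 0.02 for *Cars* and 0.06 for *Iars* to 0.33 for *Farsb* and 0.36 for *Dars*, with a median of 0.16 (0.15 after centring) and none past 1.5-fold. *Dars* had values of 1449.7 and 1866 normalized counts. No spread between samples is known for these genes, and they are not independent of each other.

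Amino acid transporters were divided. Of 10 genes, 6 lay above 0 with a median log2 ratio of 0.07, which came to 0.15 after centring on length, led by *Slc7a11*, the cystine importer, with 0.22 and *Slc7a5*, an importer of leucine and other large amino acids, with 0.21. *Slc6a9*, a glycine transporter, had 519 and 369 normalized counts, a log2 ratio of -0.49. *Slc7a3*, a transporter of cationic amino acids, was past 1.5-fold lower, with a listed log2 ratio of -0.70. Its wild-type libraries held 24, 24 and 17 counts and its Npffr1-KO libraries 11, 12 and 10. All Npffr1-KO libraries lay below all wild-type libraries, as in 9.49% of the genes tested, and limma gave a difference of -0.85 (SE 0.40) that did not pass, with an adjusted p of 0.492.

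Of 15 genes in a list of further ATF4 targets whose mean reached 10, *Mthfd2* and *Slc7a11* from the groups above included, 11 lay above 0, with a median log2 ratio of 0.17 that came to 0.06 after centring on length. *Adm2*, which encodes a peptide of the adrenomedullin family, was highest with a listed log2 ratio of 0.85. Its wild-type libraries held 22, 12 and 22 counts and its Npffr1-KO libraries 27, 48 and 36. Every Npffr1-KO library was above every wild-type library, as in 5.61% of the genes tested, and the limma difference of 1.02 (SE 0.38) had an adjusted p of 0.388 and did not pass. *Atf3*, a stress-induced repressor, had 116 and 174 normalized counts, a log2 ratio of 0.59 that is just past 1.5-fold and came to 0.52 after centring on length. *Gdf15*, a circulating stress hormone, held 28, 30 and 26 counts in wild-type and 28, 55 and 38 in Npffr1-KO, groups that overlapped (adjusted p = 0.633 in limma). *Fgf21*, a metabolic hormone, was near the limit of detection with 2, 0 and 1 counts in wild-type and 3, 0 and 3 in Npffr1-KO. *Sqstm1*, an autophagy receptor, and *Ddit4*, an inhibitor of mTORC1, had the lowest log2 ratios of this group, -0.08 and -0.06.

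**Figure D3:**
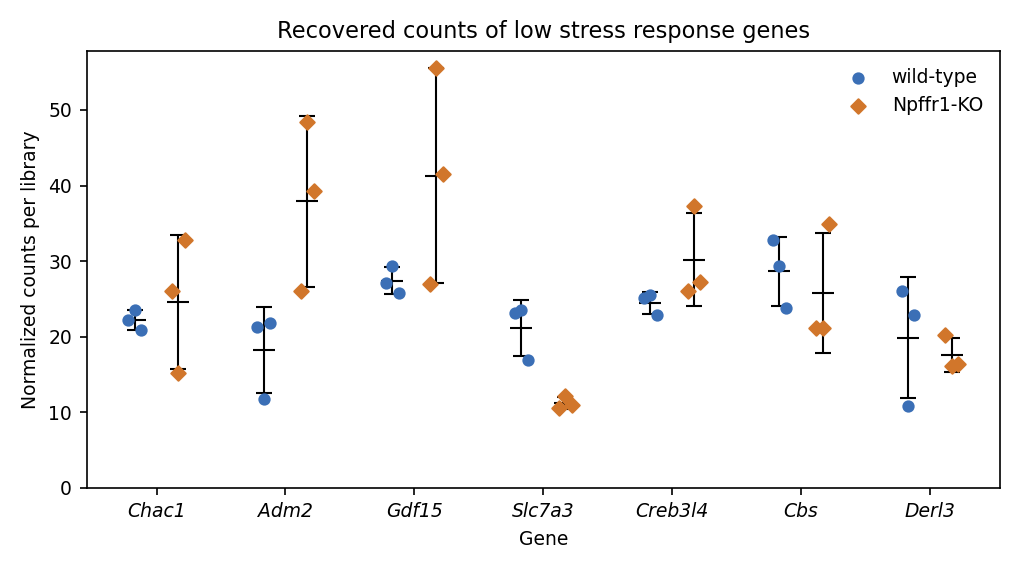
Normalized counts of each library for *Chac1* and for 6 pathway genes with recovered counts whose mean reached 10, wild-type as circles and Npffr1-KO as diamonds. Horizontal bars are means and error bars SD (n = 3). The genotypes overlap for *Chac1*, *Gdf15*, *Cbs* and *Derl3*, and not for *Adm2*, *Creb3l4* and *Slc7a3*. Of the genes tested, 5.61% have all Npffr1-KO libraries above all wild-type libraries and 9.49% have all below.

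Of 19 ER chaperones and folding enzymes, 16 lay above 0, with a median log2 ratio of 0.18 (0.13 after centring on length). *Sdf2l1*, an ER chaperone cofactor, was past 1.5-fold with 161 and 277 normalized counts and a log2 ratio of 0.78. *Manf*, a secreted ER stress protein, had a log2 ratio of 0.43, and *Hspa5*, which encodes BiP, the main ER chaperone, had 7172 and 9229.5 normalized counts and a log2 ratio of 0.36. *Dnajc10* and *P4hb*, which act on disulphide bonds, lay lowest with -0.14 and -0.04. Of 12 genes of ER-associated degradation, which returns misfolded proteins to the cytosol, 5 lay above 0 and 7 below, with a median of -0.04 (-0.01 after centring). They ran from -0.31 for *Edem3* and -0.18 for *Syvn1* to 0.10 for *Derl2* and 0.14 for *Edem1*, and none was past 1.5-fold.

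The stress sensors and their processing enzymes had the lowest median of the pathway lists, a log2 ratio of -0.13 (-0.11 after centring on length) over 12 genes, of which 5 lay above 0 and none was past 1.5-fold. *Ern1*, which encodes IRE1, the enzyme that splices *Xbp1*, had 143 and 106 normalized counts in wild-type and Npffr1-KO, a log2 ratio of -0.44. *Crebzf*, which encodes a partner of the CREB and ATF factors, had 1561 and 1205 and a log2 ratio of -0.37. *Atf6b*, the relative of *Atf6*, had a log2 ratio of 0.21. *Creb3l4*, a CREB-like factor held in the ER membrane, had a listed log2 ratio of 0.26, with 26, 26 and 23 counts in wild-type and 27, 37 and 25 in Npffr1-KO. Its Npffr1-KO libraries lay above all wild-type libraries once normalized, as in 5.61% of the genes tested. The lowest of them was only just above the highest wild-type library, and the difference did not pass in limma (adjusted p = 0.841).

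**Figure D4:**
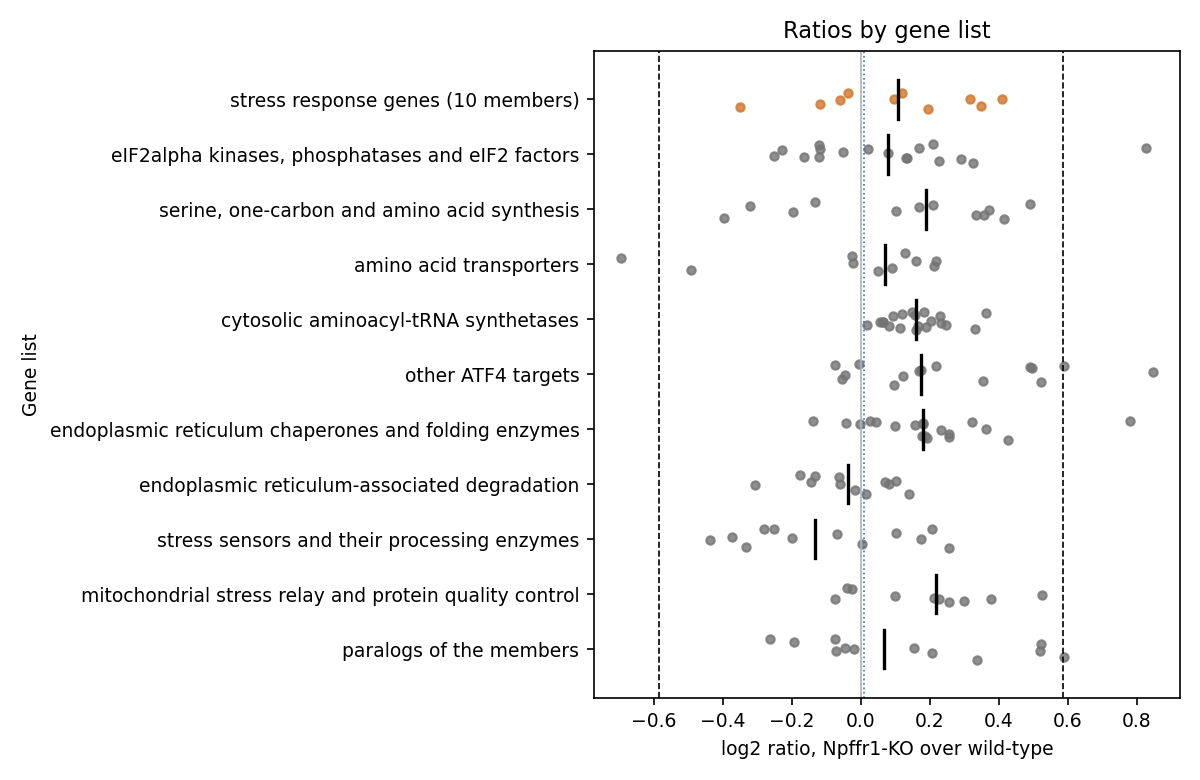
Log2 ratio of Npffr1-KO over wild-type for each gene whose mean reached 10 normalized counts, by gene list. Points are genes, orange for the 10 stress response genes, black bars are medians, the dotted line is the median of all genes (0.01) and dashed lines mark 1.5-fold. All 20 aminoacyl-tRNA synthetases lie above 0, and the stress sensors have the lowest median (-0.13).

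Markers of other cell types moved between the groups as well. The 8 adipocyte markers, which define the labelled tissue, were abundant, with sums of 636051 and 687727 normalized counts in wild-type and Npffr1-KO and none past 1.5-fold. Thermogenic genes summed to 904 and 2987, with 3 of 4 past 1.5-fold higher, led by *Cidea* and *Ucp1*. All 3 T cell markers were past 1.5-fold higher (2922 and 4792 in sum), where 2.78% of all genes were. So were 3 of 4 muscle genes whose mean reached 10 (353 and 698 in sum over 5, with *Myh4* at 0 in every wild-type library). For *Ckm*, 1 of these 3 muscle genes, the difference rested mainly on library a of Npffr1-KO, and counts per library are not known for the other 2. The sums add moderated values, and *Ckm* is listed with 27.5 and 46.4 where its library means were 2.28 and 71.6. After centring on length, 1 of the T cell markers and 2 of the muscle genes stayed past 1.5-fold. All 3 endothelial markers lay below 0, with sums of 48763 and 38530. Sums were 17266 and 20208 for 5 macrophage markers and 7619 and 8837 for 6 markers of B and plasma cells. They were 128791 and 146417 for 4 erythroid markers and 45.3 and 52.1 for 4 epithelial markers. None of these was past 1.5-fold by listed ratio, but only 1 epithelial marker reached a mean of 10. Of the others, *Krt5* held 0, 0 and 11 counts in wild-type libraries and 21, 0 and 0 in Npffr1-KO. *Krt14* held 0, 0 and 6, and 11, 1 and 1. Of the macrophage markers, 3 lay above 0 and 2 below, with *Lyz2* alone at 9262 and 11951 normalized counts. Of the B and plasma cell markers, 5 lay above 0 and 1 below. The part of these cells in the values of the stress response genes was not tested. In such bulk tissue, fewer cells of a type and less RNA per cell cannot be told apart.

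The ratios of all genes followed gene length. Across genes, the log2 ratio and the listed length had a Spearman correlation of -0.384, and genes are not independent replicates. The median log2 ratio was 0.27 in the shortest of 20 length classes, up to 837 bases, and -0.14 in the longest, from 7427 bases. *Ddit3* is listed with 877 bases, the shortest of the 10 genes, in a class with a median of 0.21. Centred on its class, its log2 ratio of 0.35 came to 0.14. The ratio of *Atf4* came to 0.21, that of *Asns* to 0.32, that of *Trib3* to -0.43 and that of *Atf5* to 0.11. After centring, 7 of the 10 genes lay above 0, with a median of 0.06. The part of this trend in the differences was not tested, and its relation to the groups cannot be told apart from that of the genotype.

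**Figure D5:**
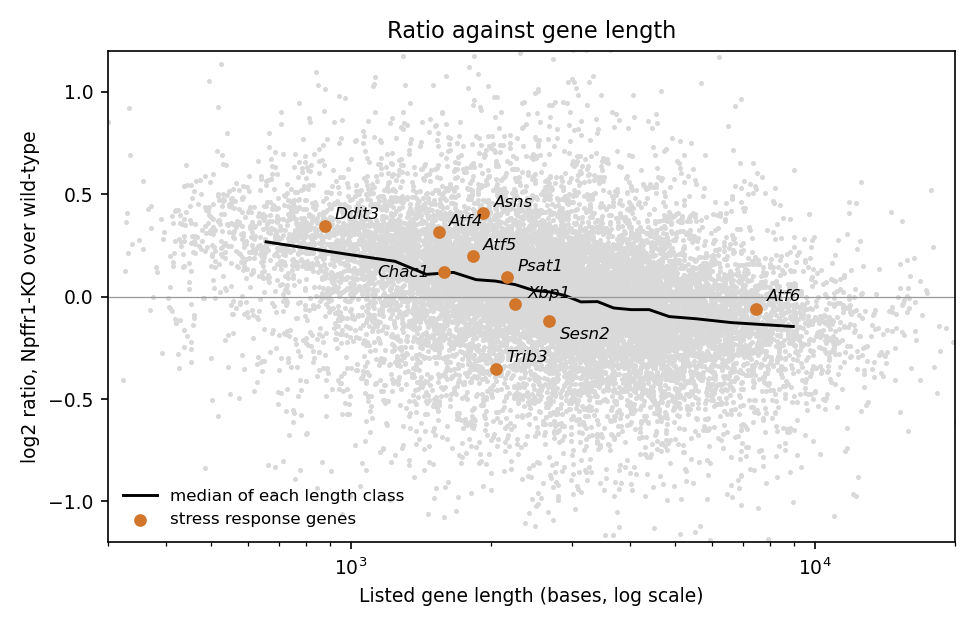
Log2 ratio of Npffr1-KO over wild-type against listed gene length in bases on a log scale, with all genes in grey, the median of 20 length classes as a line and the stress response genes as orange points. Values beyond the axes are not drawn. *Asns* and *Atf4* lie above the line, *Trib3* and *Sesn2* below it, and *Chac1* on it.

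Reads of some of these genes could be shared with other genes. Of all stretches of 31 bases in the GENCODE M21 transcripts, on either strand, *Atf5* shares 2.76% with *Il4i1*, *Ddit3* shares 2.40% with others, mostly *Mars*, and *Psat1* shares 2.18% with *Gm12611*. *Atf6* shares 0.0435%, and the other 6 genes share none. The sources used here do not say whether the counting used the strand, so reads of *Ddit3* and of *Mars* cannot be told apart where they overlap.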

How the data were processed

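RNA sequencing of iAT was used from 3 samples of each genotype, with groups from the sample labels. The deposited table holds, per the file headers, a signal of normalized expression as 1 value per genotype, made by the authors from read counts with DESeq2 size factors, beside gene length. The submitters' processing notes name Bowtie2, RSEM and DESeq2; the sources used here give no versions, genome build or annotation. The table's fold changes and p-values, and a second, filtered table, were the authors' comparisons and were not used.

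Log2 ratios were computed from both values for genes with a mean of at least 10. In genes with a single count, 6 values recur, which gave the size factors. Whole counts were searched exactly for 6601 genes with a mean of up to 50, and 99.2% had exactly 1 solution. These were tested on log2(normalized count + 1) with limma 3.58.1 (R 4.3.3, trended variance, mean of at least 5), checked on simulated data. Nothing says whether samples are separate animals, so p-values measure the spread between these libraries. Members and lists were chosen with earlier results of these data known. Named are the members, *Hspa5*, *Atf3*, *Ppp1r15a*, *Eif2ak3*, *Eif2ak4*, *Phgdh*, *Fgf21*, *Gdf15* and *Npffr1*, and the 2 highest and 2 lowest ratios of each pathway list; marker lists are given as sums. Names beyond these were chosen after their values were seen. Python 3.11.15 was used.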

Additional observations from a re-analysis of the deposited data

How the results depend on the processing

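None of the 10 genes passed 1.5-fold or 2-fold, with a minimum mean of 10, 50 or none, or after centring on length. At a log2 ratio of 0.322 in size, 2 were higher and 1 was lower. Of 40 alternative log2 ratios (centring, pseudocounts of 1 and 10), 33 stayed within the 95% counting interval and 7, all from centring on length, left it, with shifts from the reported ratio of up to 0.21 (*Ddit3*) and 1 change of sign (*Atf6*). Leaving out 1 library at a time, the *Chac1* difference ranged from -0.15 to 0.38, its adjusted p over all alternatives from 0.761 to 0.998, and it stayed near 0.08 with other pseudocounts and minimums. The count of genes passing limma was 1 at a minimum mean of 5, 0 of 1206 at 20 and 3 of 6549 with none. No paired analysis was possible because the recovered libraries carry no replicate number. Listed ratios understate low genes: against the plain ratio of recovered counts their slope was 0.70 at a mean of 20 to 50 and 0.20 below 5, and for 9 of the 10 genes it is not known.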

Other observations

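Genes of the mitochondrial stress relay and of mitochondrial protein quality control had the highest median of the pathway lists, a log2 ratio of 0.22 over 10 genes. After centring on length it was 0.13, below that of 4 other lists, among them amino acid synthesis with 0.20. Of the 10, 7 lay above 0 and none was past 1.5-fold. *Hspe1* and *Hspd1*, which encode the paired chaperonins of the mitochondrial matrix, were highest, with 1345 and 1935 normalized counts for *Hspe1* (log2 ratio 0.52) and 3927 and 5100.3 for *Hspd1* (0.38). *Dele1*, the relay from mitochondria to the kinase HRI, listed as *0610009O20Rik*, had 1335 and 1298 normalized counts, a log2 ratio of -0.04, and *Atf2* had -0.07.

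Relatives of the stress response factors were divided, with 6 of 12 above 0 and a median log2 ratio of 0.07, also after centring. The list shares *Atf3*, *Cebpb* and *Cebpg* with the ATF4 targets. *Cebpb*, a binding partner of ATF4 and a factor of adipocyte differentiation, had 1229 and 1764 normalized counts in wild-type and Npffr1-KO, a log2 ratio of 0.52. The relatives of *Trib3* differed in sign. *Trib2* had 1997 and 1746, a log2 ratio of -0.19, and *Trib1*, named after its values were seen, had 755 and 1082, a log2 ratio of 0.52. In the same list, *Atf7* had 2305 and 1922 normalized counts, a ratio of -0.26. *Chac2*, the relative of *Chac1*, had 87.3 and 110.3 normalized counts, a log2 ratio of 0.34. No spread between samples is known for these genes.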
